A study of Mus musculus with 70 samples.

Results

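Lungs of wildtype mice were compared 1 day after inhalation of crystalline silica or of air. All 6 silica and 6 air libraries with that genotype and time in their labels were used, 12 of the 70 libraries of the series, and every gene was considered. The silica mice were male, homozygous wildtype for Slc26a4 (Pds+/+), about 3 months old, and had breathed Min-U-Sil5 silica at 15 mg/m3 for 6 hours a day on 4 days in a whole-body chamber. The air mice were of the same sex, age, genotype and chamber protocol without silica. All came from a colony bred from heterozygous 129S-Slc26a4tm1Erg/AjgJ mice, so the wildtype animals were the progeny without the disrupted allele. Their knockout counterparts (Pds-/-, 6 silica and 6 air mice at 1 day) shared the model. Wildtype mice 3 months after exposure under the same protocol (6 silica and 6 air) served for a comparison over time. Below, mice of 1 day or 3 months are named by time after exposure and not by age. A piece of each lung gave total RNA for ribosome-depleted RNA sequencing, and each library is a separate mouse.

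Silica dust that reaches the alveoli is taken up by alveolar macrophages, whose phagosomes it can damage. Damaged macrophages and the epithelium around them release interleukin 1, tumour necrosis factor and chemokines, many of them transcribed through NF-kappa-B, and these draw neutrophils and monocytes into the airspace. Lung epithelium responds with secreted defence proteins, and macrophages and epithelial cells can divide to replace lost cells. In whole lung tissue, fewer or more cells of a type and less or more RNA per cell cannot be told apart.

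Depth ran from 1539090 to 2547720 counts in silica libraries and from 2257414 to 4851643 in air libraries. Lars2 alone took 4.36% to 8.67% of the counts in silica libraries and 8.28% to 11.5% in air libraries. Levels are given as normalised CPM, counts scaled to the library's total after normalisation between libraries, as the lowest, median and highest of 6 mice. A change is the log2 fold change of silica over air ± its standard error (SE), and a gene was called at an adjusted p under 0.05 in edgeR. Air libraries differed from each other by a chi-square per degree of freedom of 1.5 to 3.36 and silica libraries by 1.84 to 6.42, where silica mouse 6 gave the upper end and the others reached 4.15 among themselves. Within the shared model, knockout silica mouse 3 stood apart at 13.6 to 15.6 against its group.

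Of 12558 genes tested, 298 passed, which is 2.37%. The genes higher after silica numbered 245 (1.95% of those tested) and the lower ones 53 (0.422%). At least 2-fold changes were found in 98 higher and 7 lower genes. The median change was 0.78 over the higher genes and -0.53 over the lower ones, against 0.00033 over all genes tested. All 6 silica mice lay above all 6 air mice in 248 of the tested genes (1.97%), and 172 of the 245 higher genes were among them. All silica mice lay below all air mice in 122 tested genes (0.971%), which included 27 of the 53 lower genes. The number of higher genes moved less with the fit than the number of lower genes. With the 12 libraries alone 388 genes were higher and 253 lower, and without knockout silica mouse 3, which only shares the model, 348 were higher and 180 lower. Using all 70 libraries left 190 higher and 30 lower. Called in every one of 33 alternative fits were 98 higher and 9 lower genes.

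**Figure D1:**
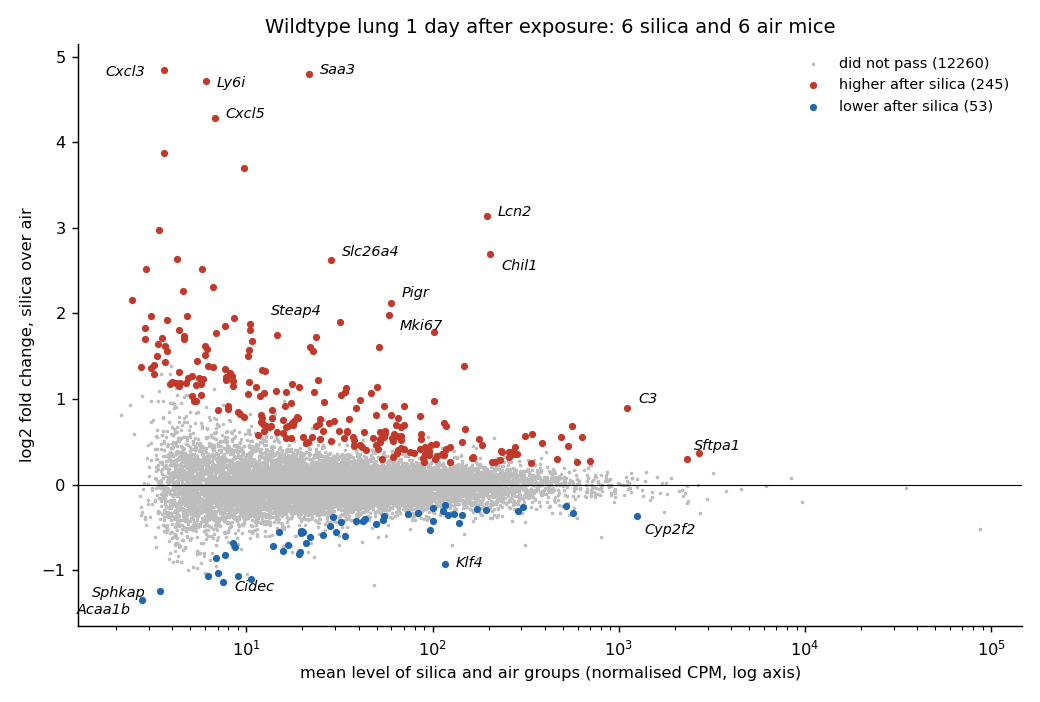
Each point is a gene of wildtype lung, placed by its mean level over silica and air mice (normalised CPM, log axis) and its log2 fold change of silica over air. The 245 higher genes reach 4.84 on the log2 scale, whereas the 53 lower genes do not go below -1.34.

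Slc26a4, the gene the series is about, encodes pendrin, an anion exchanger that moves chloride, bicarbonate and iodide in airway epithelium and other tissues. It had 24.7, 50.4 and 70.4 normalised CPM (lowest, median, highest) in silica mice, against 4.23, 8.24 and 12.6 in air mice. Every silica mouse lay above every air mouse (2.62 ± 0.25, adjusted p = 4.54e-09). It was the only called gene among 11 tested genes of anion and sodium transport in airway epithelium, whose median change was -0.02.

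Among the most raised genes were chemokines that attract neutrophils, and the upstream DNA of some of them is shown with the letters of an NF-kappa-B site. Only promoters that hold these letters are printed. The promoters, from 250 bases before to 50 after the start site, are RefSeq sequences of GRCm38.p6, the patched form of the mm10 assembly named in the processing notes. Cxcl1 is at chr5:90890995-90891294 on the plus strand, Cxcl3 at chr5:90785851-90786150 on the plus strand and Nfkbia at chr12:55492598-55492897 on the minus strand. Sequences run 5′ to 3′ in the direction of the gene, and capitals mark the letters searched on either strand, which are GGGA, any base and TTTCC.
Cxcl1: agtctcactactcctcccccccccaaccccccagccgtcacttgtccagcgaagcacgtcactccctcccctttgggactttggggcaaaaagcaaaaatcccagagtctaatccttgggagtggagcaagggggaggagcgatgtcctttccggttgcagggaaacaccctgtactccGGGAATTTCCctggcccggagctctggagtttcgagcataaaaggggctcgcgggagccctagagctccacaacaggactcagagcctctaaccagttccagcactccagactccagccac
Cxcl3: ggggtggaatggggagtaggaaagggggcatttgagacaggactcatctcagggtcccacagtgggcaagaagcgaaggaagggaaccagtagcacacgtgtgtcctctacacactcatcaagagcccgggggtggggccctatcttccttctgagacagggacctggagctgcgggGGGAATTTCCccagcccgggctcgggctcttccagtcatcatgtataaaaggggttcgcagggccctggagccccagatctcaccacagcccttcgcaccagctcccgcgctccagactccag
Nfkbia: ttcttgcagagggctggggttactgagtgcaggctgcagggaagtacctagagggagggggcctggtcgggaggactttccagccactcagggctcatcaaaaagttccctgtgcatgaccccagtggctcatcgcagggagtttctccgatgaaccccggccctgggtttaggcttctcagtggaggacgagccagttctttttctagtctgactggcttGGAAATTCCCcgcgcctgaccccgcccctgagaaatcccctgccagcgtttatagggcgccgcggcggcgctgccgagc
The match starts 71 bases before the start site in Cxcl1, 73 bases before it in Cxcl3 and 29 bases before it in Nfkbia, where it is on the opposite strand. Among all 32851 RefSeq promoters 0.411% hold these letters, as do 0.492% of 9960 tested genes with a promoter there and 9 of 195 higher genes (4.62%). They are in 2 of 8 called NF-kappa-B subunits and feedback targets with a promoter, in 0 of 8 called acute phase and secreted defence genes and in 1 of 39 lower genes (2.56%). A match of letters is a description of the sequence and not a bound site.

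Cxcl1, Cxcl3 and Cxcl5, ligands of the neutrophil receptor Cxcr2, lie close together on chromosome 5. Cxcl1 had 12.1, 17.1 and 25.3 CPM in silica mice, against 0.907, 1.23 and 1.85 in air mice (3.70 ± 0.27, adjusted p = 8.64e-12). Cxcl3 had 2.74, 6.27 and 14.5 CPM in silica mice and 0, 0.245 and 0.461 in air mice (4.84 ± 0.59, adjusted p = 9.96e-07). Cxcl5 had 6.58, 12.6 and 20.1 CPM in silica mice and 0, 0.711 and 1.85 in air mice (4.28 ± 0.62, adjusted p = 2.19e-05). None of these groups overlapped, and air mice held only a few counts of each gene. Of the 4 tested members of this list 3 rose and the median change was 3.99. The fourth was Cxcl15, an abundant product of lung epithelium, at 749.6, 932 and 983 CPM in silica mice and 746, 853 and 963 in air mice, which did not pass (adjusted p = 0.899). Cxcl2 was too low to be tested by the filter, with 2.59, 3.88 and 6.01 CPM in silica mice and 0, 0.129 and 1.38 in air mice.

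CC chemokines, which attract monocytes, lymphocytes and dendritic cells, also rose, 5 of 7 tested with a median change of 1.61. Ccl6, a product of macrophages, was the most abundant, at 178, 214 and 243 CPM in silica mice against 69.0, 81.2 and 101 in air mice (1.38 ± 0.10, adjusted p = 1.78e-12). Its neighbour on chromosome 11, Ccl9, had 20.3, 35.1 and 42.2 CPM in silica mice and 8.98, 10.8 and 13.6 in air mice (1.61 ± 0.20, adjusted p = 1.44e-06). Ccl3, an inflammatory chemokine of macrophages on the same chromosome, changed by 2.97 ± 0.40, with 1 silica mouse at 9.88 CPM and the other 5 between 4.94 and 6.28. Ccl17 and Ccl22, the paired ligands of Ccr4 made by dendritic cells and macrophages, rose by 2.52 ± 0.40 and 1.8 ± 0.24. In all 5 genes the silica mice lay above the air mice. Among other CXC chemokines Cxcl16, a membrane-bound ligand of macrophages, was the only 1 of 4 tested that rose (0.69 ± 0.09, adjusted p = 8.46e-06). After thinning of all 12 libraries to 1539090 counts, 2 of the CC chemokines, Ccl6 and Ccl9, were still called. Ccl3, Ccl17 and Ccl22 were then removed by the filter on low counts and not tested.

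Growth factors of the macrophage lineage rose with the chemokines. Csf2, which encodes GM-CSF, the factor that alveolar macrophages depend on, had 5.33, 7.38 and 8.78 CPM in silica mice and 0.461, 2.28 and 3.24 in air mice (1.74 ± 0.27, adjusted p = 7.15e-05). The groups of Csf2 did not overlap. Csf1, the growth factor of the monocyte and macrophage lineage, rose by 0.52 ± 0.12 (adjusted p = 0.00975). On the receptor side, Csf2rb, the shared beta chain, rose by 0.60 ± 0.10 and its close copy Csf2rb2 by 0.70 ± 0.16, with groups that overlapped. Reads could be divided between these near-identical genes, so their separate values are uncertain. In all, 4 of 9 tested members were called higher and the median change was 0.52. Neither receptor gene passed with all 70 libraries (adjusted p = 0.266 and 0.275).

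Secreted defence and acute phase proteins rose in 10 of 13 tested members, with a median change of 0.69. Saa3, an acute phase apolipoprotein, had 22.3, 46.1 and 56.4 CPM in silica mice, against 0.695, 1.53 and 3.23 in air mice (4.80 ± 0.33, adjusted p = 1.11e-12). Lcn2, which binds bacterial iron carriers, had 272, 359 and 440.2 CPM in silica mice and 32.8, 38.3 and 54.0 in air mice (3.14 ± 0.14, adjusted p = 1.42e-17). Chil1, a chitinase-like lectin, stood at 244, 378 and 433 CPM in silica mice and 46.0, 52.5 and 74.3 in air mice (2.69 ± 0.14, adjusted p = 1.46e-15). In each of these genes the lowest silica mouse was several times the highest air mouse.

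The other secreted products had smaller changes. Pigr, which carries polymeric immunoglobulin across epithelium, had 78.3, 96.3 and 115 CPM in silica mice and 17.6, 23.0 and 24.5 in air mice (2.13 ± 0.12, adjusted p = 2.03e-14). Sftpd, a surfactant collectin that binds microbes, rose by 0.69 ± 0.08 and the ferroxidase Cp by 0.59 ± 0.10. Chosen after their values were seen, Hp, which binds free haemoglobin, rose by 0.45 ± 0.09, the serine protease inhibitor Serpina3n by 0.53 ± 0.11 and Itih4, an acute phase protein of plasma, by 0.81 ± 0.12. The groups did not overlap for any of these 6 genes. Serpina3n and Itih4 did not pass with all 70 libraries (adjusted p = 0.0570 and 0.157).

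Of 15 tested complement genes 2 rose, both of the alternative pathway, and the median change was 0.22. C3, the central component, had 1136, 1500.3 and 1695 CPM in silica mice and 700.3, 767 and 842 in air mice (0.90 ± 0.10, adjusted p = 1.59e-07). Cfb, the protease subunit of the alternative convertase, rose by 1.61 ± 0.14 (adjusted p = 3.33e-10). Cfb overlaps another annotated gene on its own strand, so reads there may not all be its own. In both genes every silica mouse lay above every air mouse.

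**Figure D2:**
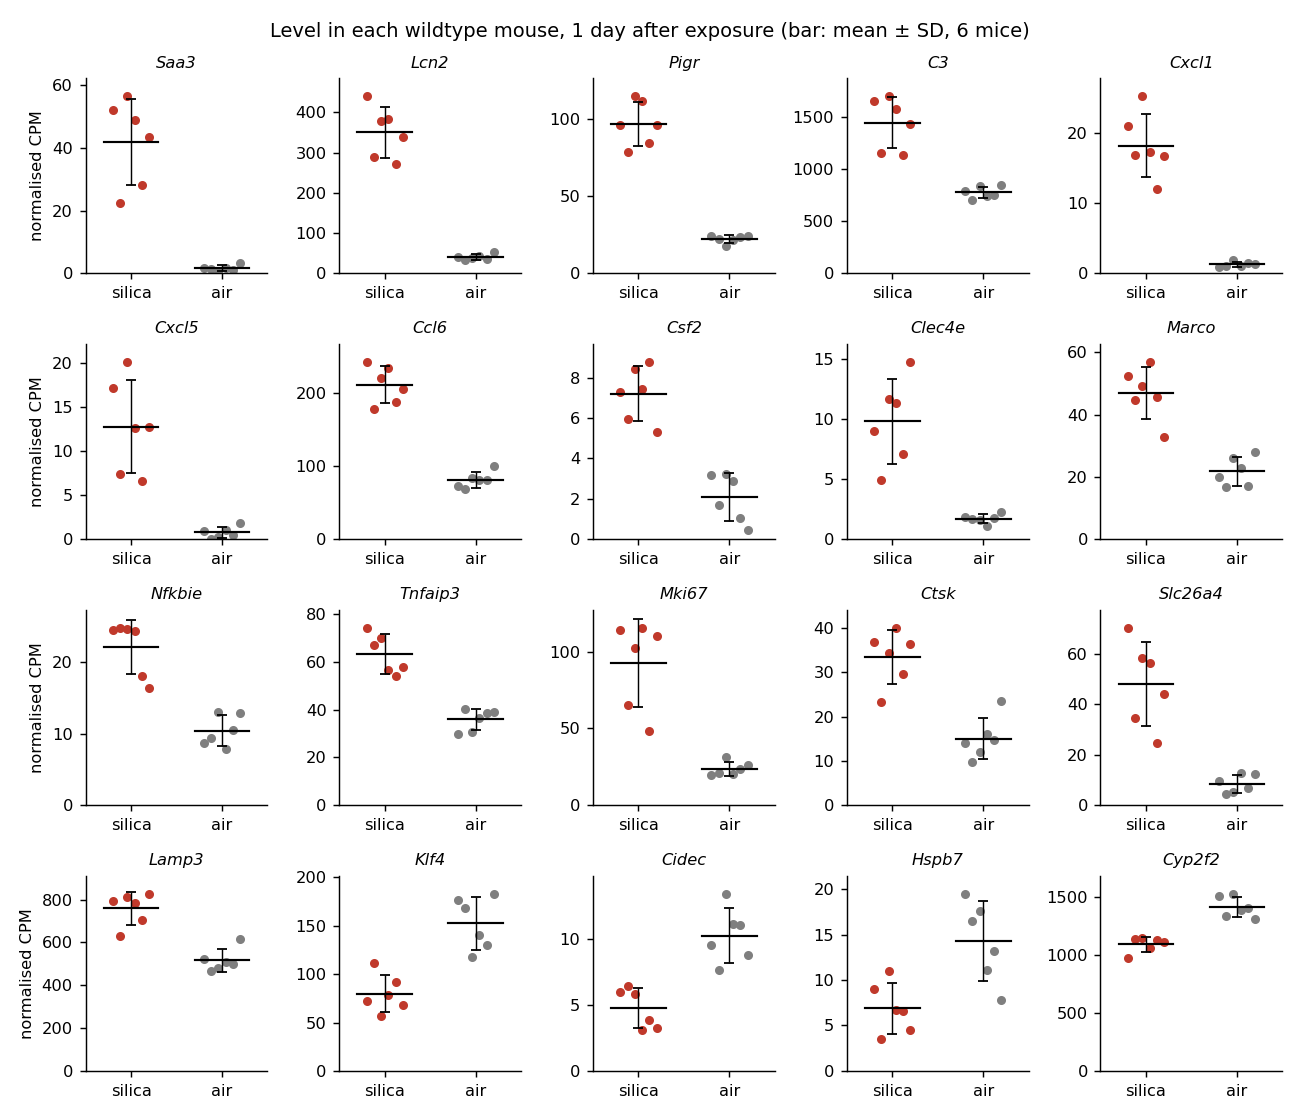
Each point is the level of a gene in 1 wildtype mouse (normalised CPM, linear axis from 0), with silica mice left of air mice and the mean ± SD of 6 mice as bars. Groups are apart for Lcn2, Pigr and Cxcl1, while Hspb7 and Ctsk show silica and air mice that share a range.

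Interleukin 1 and TNF genes showed few calls. Of 15 tested genes of the inflammasome and the interleukin 1 family 3 rose, and the median change was 0.31. Il1rn, the secreted antagonist of the interleukin 1 receptor, had 11.9, 16 and 23.2 CPM in silica mice and 3.60, 4.51 and 7.73 in air mice, with no overlap (1.68 ± 0.24, adjusted p = 1.76e-05). Il1a, an alarmin released by damaged cells, changed by 1.06 ± 0.26 (adjusted p = 0.0188), and Casp4, a cytosolic sensor of bacterial lipopolysaccharide, by 0.85 ± 0.21 (adjusted p = 0.0148). Groups overlapped for both. Il1a did not pass without air mouse 2, silica mouse 1 or silica mouse 6 (adjusted p = 0.0531 to 0.120) or with all 70 libraries (adjusted p = 0.0808), nor did Casp4 without air mouse 2 or silica mouse 4 or 6 (adjusted p = 0.0541 to 0.0754). The count of the list was then 1 without air mouse 2 or silica mouse 6. The cytokine Il1b had 13.0, 17.9 and 25.3 CPM in silica mice and 3.23, 9.92 and 16.1 in air mice and did not pass (0.82 ± 0.24, adjusted p = 0.0698). Nlrp3, the sensor of particle damage in the inflammasome, did not pass either (0.60 ± 0.22, adjusted p = 0.163). Il1b passed in edgeR with the 12 libraries alone (adjusted p = 0.0255) and with no filter on low counts (adjusted p = 0.0465). With voom Il1b (adjusted p = 0.0223) and Nlrp3 (adjusted p = 0.0301) passed, but neither did with DESeq2 or all 70 libraries. The list held 4 calls with the 12 libraries alone, 5 with voom and 1 after thinning to equal depth. Il1b and Nlrp3 were named after their values were seen.

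In the list of TNF, interleukin 6 and other cytokines, 3 of 12 tested members rose and the median change was 0.09. Tnfrsf9, a costimulatory receptor of the TNF receptor family, had 3.97, 6.18 and 11.7 CPM in silica mice and 0, 0.347 and 1.36 in air mice (3.87 ± 0.49, adjusted p = 2.21e-06). Tnf itself had 3.84, 4.59 and 5.33 CPM in silica mice and 0.907, 1.61 and 3.48 in air mice (1.29 ± 0.30, adjusted p = 0.00978). Osmr, the receptor chain for oncostatin M, rose by 0.44 ± 0.09 (adjusted p = 0.00274), with groups that overlapped. The groups were apart for Tnfrsf9 and Tnf. Tnf did not pass with all 70 libraries (adjusted p = 0.102). Il6 was among 9 members too low to be tested, at up to 1.29 CPM in silica mice and up to 0.258 in air mice.

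Of 21 tested NF-kappa-B subunits and feedback targets 10 rose and 11 did not pass, with a median change of 0.41. Feedback targets are genes the factor induces that limit it, but the list also holds other targets such as Icam1. Silica and air mice were apart in every called member but Relb. Nfkbie, an inhibitor that holds NF-kappa-B in the cytoplasm, had 16.4, 24.4 and 24.8 CPM in silica mice and 7.90, 9.94 and 13.0 in air mice (1.08 ± 0.17, adjusted p = 6.46e-05). Tnfaip3, the ubiquitin-editing enzyme A20, had 54.3, 62.4 and 74.3 CPM in silica mice and 29.9, 37.7 and 40.2 in air mice (0.81 ± 0.13, adjusted p = 6.46e-05). The nuclear inhibitor-like factor Nfkbiz rose by 0.59 ± 0.09, the survival factor Birc3 by 0.63 ± 0.10 and the adhesion molecule Icam1 by 0.56 ± 0.09. Nfkbia, whose promoter is printed above, rose by 0.50 ± 0.12 (adjusted p = 0.0197). It did not pass without air mouse 1 or 3 or silica mouse 1 or 4 (adjusted p = 0.0519 to 0.0663). Of the subunits named after their values were seen, Nfkb1 (0.17 ± 0.07, adjusted p = 0.230) and Rela (-0.15 ± 0.11, adjusted p = 0.606) did not pass, whereas Nfkb2 (0.61 ± 0.12) and Relb (0.79 ± 0.18) were called.

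Receptors that sense microbes, lipids and particles rose in 8 of 19 tested members, with a median change of 0.35. Clec4e, a lectin that recognises glycolipids and products of dead cells, had 4.96, 10.2 and 14.8 CPM in silica mice and 1.08, 1.75 and 2.31 in air mice (2.51 ± 0.28, adjusted p = 2.18e-07). Marco, a scavenger receptor of alveolar macrophages that binds silica and other particles, had 32.8, 47.4 and 56.9 CPM in silica mice and 16.7, 21.5 and 28.1 in air mice (1.13 ± 0.15, adjusted p = 5.81e-06). Tlr2, a receptor of bacterial lipoproteins, rose by 1.04 ± 0.14 and Clec7a, the beta-glucan receptor, by 0.91 ± 0.15. These 4 genes had no overlap between silica and air mice. Clec5a, an activating lectin of myeloid cells, rose by 2.26 ± 0.32, and its highest air mouse at 3.69 CPM lay above its lowest silica mouse at 2.48. After thinning to equal depth 5 of the 8 genes were called. Clec4e and Clec5a were then removed by the filter on low counts and not tested.

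Interferon-stimulated genes changed in the same direction with few calls. All 18 tested members had a positive log2 fold change, where 50.1% of all tested genes did, and the median was 0.69, but 4 passed. Ifit1, which binds foreign RNA, had 14.9, 22.2 and 34.9 CPM in silica mice and 8.16, 10.4 and 14 in air mice (1.17 ± 0.20, adjusted p = 0.000289). Ifit3, its binding partner, had 33.7, 46.4 and 53.3 CPM in silica mice and 24.5, 25.8 and 28.7 in air mice (0.77 ± 0.13, adjusted p = 0.000271). In both genes silica and air mice were apart. A near-identical copy of Ifit3 lies beside it in the mouse genome, so reads there could be shared. The factor Irf7 (0.73 ± 0.20, adjusted p = 0.0351) and the RNA sensor Ddx58 (0.44 ± 0.11, adjusted p = 0.0164) were the other calls. Irf7 did not pass without air mouse 1, 3 or 4 or silica mouse 1, 2 or 6 (adjusted p = 0.0505 to 0.163) or with all 70 libraries (adjusted p = 0.246), and Ddx58 not without silica mouse 6 (adjusted p = 0.0637). The list held 2 calls without silica mouse 6 and 7 without knockout silica mouse 3.

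The promoters of both Ifit genes hold repeated matches of the interferon response letters, so they are printed. Ifit1 is at chr19:34640639-34640938 and Ifit3 at chr19:34583279-34583578, both on the plus strand of GRCm38.p6 from RefSeq. Capitals mark the letters searched, GAAA, any 2 bases and GAAA, here on the opposite strand.
Ifit1: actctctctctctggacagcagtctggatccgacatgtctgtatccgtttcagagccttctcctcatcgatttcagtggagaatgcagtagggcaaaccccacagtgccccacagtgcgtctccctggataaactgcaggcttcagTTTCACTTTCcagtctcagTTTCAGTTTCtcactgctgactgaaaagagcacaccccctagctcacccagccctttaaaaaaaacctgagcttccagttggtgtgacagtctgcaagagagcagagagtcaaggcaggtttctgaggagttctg
Ifit3: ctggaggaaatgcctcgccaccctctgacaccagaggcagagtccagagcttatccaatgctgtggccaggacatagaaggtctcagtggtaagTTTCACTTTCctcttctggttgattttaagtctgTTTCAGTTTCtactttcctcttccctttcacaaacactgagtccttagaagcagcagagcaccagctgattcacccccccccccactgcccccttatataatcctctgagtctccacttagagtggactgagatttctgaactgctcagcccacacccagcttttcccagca
Matches start 104 and 85 bases before the start site in Ifit1, and 156 and 122 bases before it in Ifit3. These letters occur in 3.44% of all 32851 promoters, in 3.72% of tested genes with a promoter, in 13 of 195 higher genes (6.67%), in 1 of 39 lower genes (2.56%) and in 3 of the 4 called interferon-stimulated genes. The letters of E2F sites (GGCGGGAA), which regulate cell division genes, were in 1.54% of promoters of higher genes and 7.69% of those of lower genes, against 4.62% of tested ones, and in none of 10 called cell division genes with a promoter. AP-1 letters (TGANTCA) were in 13.3% of promoters of higher genes and 15.4% of those of lower genes, against 6.34% of tested ones. Antioxidant response letters (TGACNNNGC) were in 11.3% of promoters of higher genes and 23.1% of those of lower genes, against 16.9% of tested ones. The motifs can overlap one another and both strands were searched.

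Genes of dividing cells rose in silica lungs. Of 20 tested members 13 were called higher, all 20 had a positive change and the median was 1.38. Summed over the list, silica mice held 206.3, 367.2 and 378.1 CPM and air mice 121.0, 137.3 and 154.8. Mki67, a marker of cells in cycle, had 48.3, 106 and 115 CPM in silica mice and 19.5, 22.2 and 31.1 in air mice (1.98 ± 0.25, adjusted p = 2.76e-06). Silica mice 2 and 5 held the lowest values of Mki67, at 65.4 and 48.3 CPM, while the other 4 lay between 102.5 and 115.4.

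Other division genes had lower levels. Top2a, which untangles DNA before mitosis, had 18.3, 37.8 and 45.1 CPM in silica mice and 7.62, 11.7 and 16.8 in air mice (1.56 ± 0.24, adjusted p = 6.36e-05). The kinesin Kif11 changed by 1.58 ± 0.32, the kinetochore protein Cenpf by 1.81 ± 0.39 and the apoptosis inhibitor and passenger protein Birc5 by 2.15 ± 0.42, all with silica above air. Spindle genes Aspm (1.95 ± 0.35) and Nusap1 (1.70 ± 0.34) rose with groups that overlapped, whereas Hmmr (1.83 ± 0.41) and the scaffold protein Iqgap3 (1.97 ± 0.37) were apart. Kif20a, a kinesin of cell separation, rose by 1.92 ± 0.44 but not without silica mouse 4 (adjusted p = 0.0670). Uhrf1, which keeps DNA methylation through replication and was chosen after its values were seen, rose by 1.57 ± 0.24. With libraries thinned to equal depth 4 members of the list were called, and with the 12 libraries alone 9 were. The filter on low counts removed some members in these fits, so they were not tested there. Of those named here, these were Birc5, Kif11, Kif20a and Nusap1 at equal depth, and Birc5 and Kif20a with the 12 libraries.

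Of 16 tested genes of lipid-laden and osteoclast-type macrophages 8 rose and the median change was 0.36. Spp1, the secreted matrix protein osteopontin, had 42.6, 55.2 and 59.3 CPM in silica mice and 22.2, 26.7 and 36.4 in air mice (0.98 ± 0.12, adjusted p = 2.09e-06). Gpnmb, a glycoprotein of stressed lysosomes, had 50.5, 73.3 and 89.3 CPM in silica mice and 33.4, 37.5 and 45.7 in air mice (0.91 ± 0.13, adjusted p = 1.71e-05). Silica and air mice were apart for both. The elastase Mmp12 rose by 1.86 ± 0.37, the collagenase of osteoclasts Ctsk by 1.22 ± 0.17 and the lipoprotein lipase Lpl by 0.72 ± 0.11, and groups overlapped for Mmp12 and Ctsk. The fatty acid carrier Fabp5 (0.40 ± 0.10) and the lysosomal lipase Lipa (0.35 ± 0.09) were named after their values were seen. None of the 8 passed with all 70 libraries, where the adjusted p of Spp1 was 0.242 and that of Ctsk 0.194. Without air mouse 2 the list held 5 calls.

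Markers of resident alveolar macrophages moved both ways, 4 higher and 1 lower of 14 tested with a median change of 0.04. Summed, they held 1165, 1206 and 1316 CPM in silica mice and 1027, 1135 and 1258 in air mice. Besides Marco, Itgax, the integrin Cd11c, rose by 0.68 ± 0.10, and Plet1, a surface glycoprotein of these cells, by 0.54 ± 0.11 with groups that overlapped. Cidec, a lipid droplet protein, was the lower member, and without air mouse 1 the list held 2 lower calls. The lectin Siglecf had 4.51, 6.58 and 8.24 CPM in silica mice and 5.44, 10.3 and 11.1 in air mice, and did not pass (-0.56 ± 0.18, adjusted p = 0.119). Chil3, the abundant chitinase-like protein of alveolar macrophages, did not pass either, at 377, 448 and 479 CPM in silica mice and 384, 442 and 541 in air mice. After thinning to equal depth Siglecf passed (adjusted p = 0.0229), but not with the 12 libraries at full depth (adjusted p = 0.0996). Siglecf and Chil3 were named after their values were seen. Itgax and Plet1 did not pass with all 70 libraries (adjusted p = 0.334 and 0.150).

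Ly6i, a surface antigen of the Ly6 family and 1 of the largest increases, had 7.13, 11.6 and 17.3 CPM in silica mice and 0, 0.258 and 1.38 in air mice (4.71 ± 0.45, adjusted p = 5.76e-09). Wfdc17, a small secreted inhibitor-like protein of activated macrophages, had 5.45, 6.73 and 10.6 CPM in silica mice and 0.773, 0.993 and 2.16 in air mice (2.64 ± 0.35, adjusted p = 4.54e-06). Plek, a substrate of protein kinase C in platelets and leukocytes, rose by 0.97 ± 0.11 (adjusted p = 9.86e-08). All 3 had silica mice above air mice. Retnla, a resistin-like molecule of macrophages and airway epithelium, rose by 1.07 ± 0.21 with groups that overlapped, but not with all 70 libraries (adjusted p = 0.459).

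Neutrophil markers were sparse. Of 7 tested members 3 rose, the median change was 0.68, and 8 members were not tested. Among those, the granule genes Mpo and Elane had no count in any of the 12 libraries, and Camp and Ngp were at a median of 0.215 and 0.205 CPM in silica mice and 0 and 0.33 in air mice. The summed level was 123.4, 148.4 and 172.7 CPM in silica mice and 71.9, 89.7 and 105.2 in air mice, so the groups were apart. Cd177, a surface protein of neutrophils, had 11.1, 16.6 and 21.8 CPM in silica mice and 2.55, 4.43 and 6.46 in air mice (1.87 ± 0.22, adjusted p = 5.70e-07). Cxcr2, the receptor of the chemokines printed above, rose by 0.68 ± 0.18 (adjusted p = 0.0344) and S100a9, a calcium-binding protein of neutrophils and monocytes, by 0.92 ± 0.25 (adjusted p = 0.0356). Cxcr2 did not pass without silica mouse 1 or 6 or air mouse 1, 2, 3, 4 or 5 (adjusted p = 0.0516 to 0.141). S100a9 did not pass without silica mouse 1, 2, 3 or 6 or any air mouse but mouse 2 (adjusted p = 0.0564 to 0.101). The list held 1 call without silica mouse 1 or air mouse 1, 4 or 5, and 0 with all 70 libraries, where the adjusted p of Cd177 was 0.128. Pglyrp1, a peptidoglycan-binding protein of neutrophil granules chosen after its values were seen, rose by 1.34 ± 0.19.

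Other leukocyte lists held little. The monocyte and interstitial macrophage list had 1 call in 14, Cd68, an endosomal protein of macrophages (0.61 ± 0.14, adjusted p = 0.0124), lost without silica mouse 4 (adjusted p = 0.0501) and with all 70 libraries (adjusted p = 0.312). Of 15 genes of dendritic cells and antigen presentation 2 rose, the maturation marker Cd83 by 0.87 ± 0.19 and the class II chain H2-Ab1 by 0.38 ± 0.09. H2-Ab1 did not pass without silica mouse 1, 3 or 4 or air mouse 2 or 4 (adjusted p = 0.0517 to 0.0652) or with all 70 libraries (adjusted p = 0.167), which left 1 call. No marker of T and natural killer cells (10 tested, median -0.07) or of B and plasma cells (7 tested, median -0.18) passed in edgeR or DESeq2, and 1 and 0 had an unadjusted p under 0.05. The T cell costimulator Icos had 3.84, 4.38 and 7.79 CPM in silica mice and 2.32, 3.13 and 4.53 in air mice (adjusted p = 0.327). Red blood cell genes, which vary with blood left in the piece, held 123.2, 284.0 and 2090 CPM in silica mice and 184.3, 265.0 and 874.7 in air mice, with 0 of 2 called in edgeR and DESeq2 and 0 at an unadjusted p under 0.05.

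Alveolar epithelial genes showed small changes at high levels. Of 14 tested genes of alveolar type 2 cells and surfactant 4 rose, all with silica mice above air mice, and the median change was 0.06. Lamp3, a protein of lamellar bodies, the stores of surfactant, had 629.6, 789 and 827 CPM in silica mice and 465, 505 and 614 in air mice (0.56 ± 0.10, adjusted p = 0.000375). Sftpa1, a surfactant collectin, had 2284, 2617 and 2703 CPM in silica mice and 1896, 2089 and 2201 in air mice (0.30 ± 0.06, adjusted p = 0.00284). Lyz2, the lysozyme made by macrophages and type 2 cells, rose by 0.37 ± 0.07. Sftpc, the most specific surfactant gene and named after its values were seen, did not pass (-0.05 ± 0.06, adjusted p = 0.762). Sftpa1 lost its call with GC-corrected offsets and with all 70 libraries (adjusted p = 0.0625 and 0.0668), and Lyz2 lost its call with all 70 libraries (adjusted p = 0.214).

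The type 1 cell list had 1 call in 11, the membrane glycoprotein Pdpn (0.41 ± 0.09, adjusted p = 0.00425), with a median of -0.03. In the list of stressed and transitional epithelium 2 of 14 rose, Itgb6, a chain of the integrin that activates TGF-beta (0.80 ± 0.18, adjusted p = 0.00817), and Tnip3, a partner of A20 (1.56 ± 0.30, adjusted p = 0.00125). Ehf, an epithelial transcription factor, rose by 0.78 ± 0.12 and Muc4, a membrane mucin, by 1.14 ± 0.17. Has3, which makes hyaluronan, had 7.44, 11.1 and 14.3 CPM in silica mice and 1.08, 2.31 and 2.96 in air mice (2.31 ± 0.23, adjusted p = 2.09e-08). Silica and air mice were apart for Pdpn, Tnip3, Ehf, Muc4 and Has3 but not for Itgb6. Tnip3 did not pass with all 70 libraries (adjusted p = 0.0916). Ehf and Muc4 were chosen after their values were seen.

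Among the larger increases were 5 genes of enzymes and carriers, which were not fixed as a list. Vnn1 and Vnn3, pantetheinases that lie close together on chromosome 10 and release cysteamine, rose by 1.72 ± 0.17 and 1.75 ± 0.18 (adjusted p = 8.08e-09 and 1.93e-08). Vnn1 had 28.3, 38.0 and 42.0 CPM in silica mice and 9.07, 11.0 and 12.9 in air mice. Steap4, a metalloreductase induced in inflammation, had 28.3, 54.4 and 65.6 CPM in silica mice and 11.1, 13.0 and 17.5 in air mice (1.89 ± 0.18, adjusted p = 7.69e-09). Both genes had silica mice well above air mice. Slc7a11, the cystine carrier that feeds glutathione synthesis, had 8.24, 10.4 and 13.9 CPM in silica mice and 1.36, 3.12 and 5.39 in air mice (1.77 ± 0.24, adjusted p = 8.46e-06). Slc13a3, a carrier of dicarboxylates, rose by 1.97 ± 0.32.

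Slc7a11 was 1 of 2 calls among 21 NRF2 target and glutathione genes, whose median change was 0.13. The other was Hmox1, which degrades haem (0.56 ± 0.14, adjusted p = 0.0266), lost without silica mouse 1, 3 or 4 or air mouse 2 or 4 (adjusted p = 0.0572 to 0.0885). The quinone reductase Nqo1, a common reporter of NRF2, had 3.28, 5.47 and 6.44 CPM in silica mice and 5.03, 5.80 and 9.04 in air mice and did not pass (adjusted p = 0.390). With all 70 libraries 0 of the 21 were called, and the adjusted p of Slc7a11 was 0.109. Noxo1, the organiser of the epithelial oxidase Nox1, rose by 1.5 ± 0.19, and the mitochondrial arginase Arg2 by 1.35 ± 0.20. Nqo1, Noxo1 and Arg2 were chosen after their values were seen. Among metal genes Steap4 and Cp were the 2 calls of 14 tested, and among prostaglandin enzymes Ptgs2, the inducible cyclooxygenase, was the 1 call of 12 (0.90 ± 0.16, adjusted p = 0.000376).

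The lists that follow held 1 or 2 calls each. Of 17 lysosome genes the protease Ctsz rose (0.35 ± 0.08, adjusted p = 0.0127), lost without silica mouse 3 (adjusted p = 0.0513) and with all 70 libraries (adjusted p = 0.489), with 3 calls without knockout silica mouse 3. Of 17 clock genes Bhlhe40 rose (0.69 ± 0.14, adjusted p = 0.00257), and of 19 cholesterol and fatty acid synthesis genes Sqle, the squalene epoxidase, did (0.44 ± 0.10, adjusted p = 0.00520). Bhlhe40 was lost with all 70 libraries (adjusted p = 0.0559). Of 16 immediate early genes Ier3 rose (0.59 ± 0.12, adjusted p = 0.00277) and Klf4 fell. Of 13 glucocorticoid response genes the 2 that rose were Lcn2 and Nfkbia, which are also members of other lists, with a list median of 0.06.

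Of 20 tested matrix and protease genes 0 passed in DESeq2 or in the edgeR model shared with knockout mice, and 3 passed with voom. In that edgeR model 7 had an unadjusted p under 0.05, and the median was -0.04. With the 12 libraries alone 1 was higher and 2 lower. After thinning to equal depth 3 were lower, and with GC-corrected offsets 1 was higher. Without silica mouse 2 or 6 or air mouse 3, 1 passed. The metalloproteinase inhibitor Timp1 had 2.97, 6.28 and 10.4 CPM in silica mice and 1.48, 2.89 and 4.53 in air mice (1.05 ± 0.34, adjusted p = 0.105). The gelatinase Mmp9 had 11.1, 18.5 and 20.8 CPM in silica mice and 6.47, 11.4 and 16.7 in air mice (0.57 ± 0.17, adjusted p = 0.0800). Timp1 passed with the 12 libraries alone (adjusted p = 0.0426) and with voom (adjusted p = 0.0410). Mmp9 passed with voom (adjusted p = 0.0296) and with GC-corrected offsets (adjusted p = 0.0198). Neither passed with DESeq2 or all 70 libraries. Mesothelial markers (6 tested, median -0.04) held 0 calls in edgeR and DESeq2, with 0 at an unadjusted p under 0.05. In all, 41 lists were examined, 8 of them without a call in the edgeR model shared with knockout mice.

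**Figure D3:**
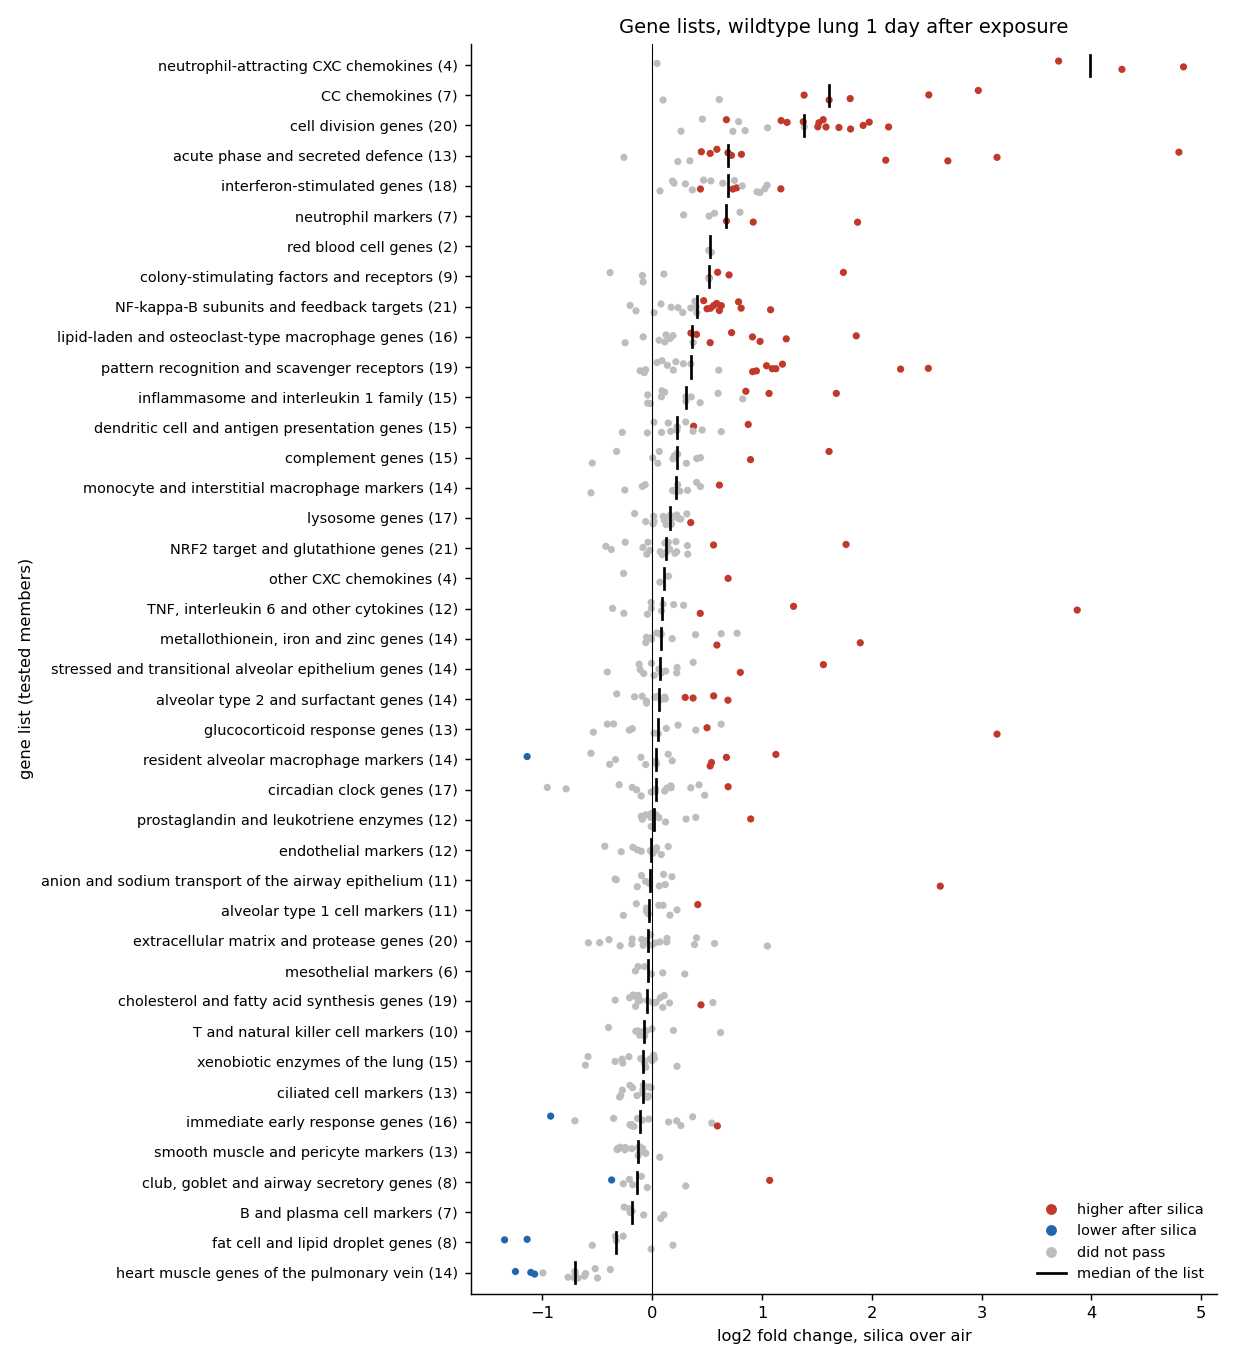
Each row is a gene list with its number of tested members, each point the log2 fold change of 1 member (silica over air) and each bar the list's median. Lists run by median, with neutrophil-attracting chemokines at 3.99 on top and heart muscle genes at -0.70 at the bottom.

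The lower genes were fewer and changed less. Klf4, a transcription factor of endothelium, epithelium and monocytes, had 56.4, 75.5 and 111 CPM in silica mice and 117, 154 and 183 CPM in air mice (-0.92 ± 0.20, adjusted p = 0.00487). Tbx1, a T-box factor of development, had 2.75, 3.87 and 7.30 CPM in silica mice and 8.25, 9.60 and 10.1 in air mice (-1.03 ± 0.23, adjusted p = 0.00627). Both genes were lower in every silica mouse than in any air mouse. Cidec, which fuses lipid droplets, had 3.14, 4.84 and 6.45 CPM in silica mice and 7.62, 10.3 and 13.4 in air mice (-1.14 ± 0.22, adjusted p = 0.00166). Acaa1b, a peroxisomal thiolase of fatty acid breakdown, changed by -1.34 ± 0.37 with groups that overlapped. It did not pass without silica mouse 2, 3, 4 or 5 or air mouse 1, 2 or 5 (adjusted p = 0.0524 to 0.148), nor with GC-corrected offsets (adjusted p = 0.0597) or all 70 libraries (adjusted p = 0.173). Cidec and Acaa1b were the 2 lower calls among 8 tested fat cell and lipid droplet genes, and 1 was left without each of those mice. The fat cell markers Adipoq and Plin1 were too low to be tested, at a median of 0.489 and 0.572 CPM in silica mice and 1.04 and 0.925 in air mice.

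Other lower genes were of varied function. Tcf7l1, a repressor of Wnt targets, fell by 0.78 on the log2 scale, and Fndc1, a fibronectin domain protein, by 0.78. Phf13, a chromatin reader, changed by -0.72 ± 0.16, the potassium channel Kcnn3 by -0.59 ± 0.13 and Bambi, a decoy receptor for TGF-beta, by -0.54 ± 0.12. Smaller changes at higher levels were those of the secreted Hedgehog partner Scube2 (-0.44 ± 0.10), the receptor adaptor Grb14 (-0.46 ± 0.10) and smooth muscle myosin Myh11 (-0.31 ± 0.06). Cyp2f2, the club cell enzyme that activates naphthalene, had 977, 1119 and 1143 CPM in silica mice and 1314, 1397 and 1528 in air mice (-0.37 ± 0.07, adjusted p = 0.00150). Of these genes Phf13 was the only one in which silica and air mice overlapped. With all 70 libraries Cyp2f2 (adjusted p = 0.136), Myh11 (adjusted p = 0.160), Scube2 (adjusted p = 0.0815), Kcnn3 (adjusted p = 0.0976) and Fndc1 (adjusted p = 0.0794) were not called.

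Heart muscle genes, which lung samples hold through the muscle sleeve of the pulmonary veins, had a negative change in all 14 tested members, where 49.9% of all genes did, and 3 passed, with a median of -0.70. Their summed level was 737.3, 1178 and 1689 CPM in silica mice and 943.0, 1785 and 2587 in air mice, so the groups overlapped. Hspb7, a small heat shock protein of heart muscle, had 3.47, 6.63 and 11.0 CPM in silica mice and 7.84, 14.8 and 19.5 in air mice (-1.11 ± 0.24, adjusted p = 0.00515). Mb, the oxygen store myoglobin, had 3.47, 6.64 and 8.43 CPM in silica mice and 3.69, 12.9 and 18.8 in air mice (-1.07 ± 0.27, adjusted p = 0.0202). Air mice 1 to 3 held the highest Mb, between 15.1 and 18.8 CPM, and air mouse 6 the lowest. Sphkap, an anchoring protein of heart, changed by -1.25 ± 0.29 and was lost without silica mouse 4 (adjusted p = 0.0607). Mb was lost without silica mouse 4 or air mouse 1, 2 or 3 (adjusted p = 0.0505 to 0.117). The list held 1 call without silica mouse 4, 5 without air mouse 4, 7 without air mouse 6 and 1 with all 70 libraries. How much vein muscle each piece of lung held was not tested. Cox6a2, a cytochrome oxidase subunit of heart and skeletal muscle outside the list, changed by -1.06 ± 0.26 and was lost without silica mouse 4 or 6 or air mouse 3 (adjusted p = 0.0511 to 0.0897).

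The base composition of transcripts moved with the direction of change. Median GC was 55.4% in the 53 lower genes and 47.8% in the 240 higher genes with an annotated transcript, against 49.7% in all tested genes. Median log2 fold change ran from 0.11 in tested genes under 40% GC to -0.20 in those over 60%. In knockout mice 1 day after exposure the same bins had medians between -0.0048 and 0.0066. In wildtype mice 3 months after exposure they ran from 0.024 under 40% GC to -0.043 over 60%. The part of base composition in the calls was not tested beyond the corrected fit. With offsets corrected for GC 274 genes were higher and 55 lower. Also called in that fit were 232 of the 245 higher genes and 33 of the 53 lower ones. Klf4, Tbx1, Cidec, Hspb7, Mb, Cyp2f2 and Myh11 stayed under the threshold there, whereas Bbc3, a cell death gene (adjusted p = 0.0981), and Gata2, an endothelial and blood cell factor (adjusted p = 0.0712), did not.

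Other cell types of the lung showed no or few calls. Of 8 tested airway secretory genes Cyp2f2 fell and Retnla rose. Ciliated cell markers were all negative, 13 of 13 with a median of -0.09. In DESeq2 and in the edgeR model shared with knockout mice 0 passed, with 3 at an unadjusted p under 0.05. With the 12 libraries alone 1 was lower, with voom 2, and without knockout silica mouse 3 there was 1 call. The tubulin-binding Tppp3 had 173, 177 and 209.6 CPM in silica mice and 199, 226 and 239 in air mice (-0.27 ± 0.10, adjusted p = 0.177), and the motility gene Hydin changed by -0.29 ± 0.09 (adjusted p = 0.108). Tppp3 passed with the 12 libraries alone (adjusted p = 0.00894) and with voom (adjusted p = 0.00830). Hydin passed with voom (adjusted p = 0.0301), and neither gene passed with DESeq2 or all 70 libraries. Of 13 smooth muscle and pericyte markers Myh11 fell, and the median was -0.13. Of 12 endothelial markers 0 passed in the edgeR model shared with knockout mice and 1 in DESeq2, with 3 at an unadjusted p under 0.05. The list held 1 call without silica mouse 1 or 2, knockout silica mouse 2 or 3 or knockout air mouse 3. With the 12 libraries alone 1 was lower, and with voom 2 were. The nearest was Plvap, a protein of endothelial diaphragms (-0.43 ± 0.12, adjusted p = 0.0541), in which every silica mouse lay below every air mouse. Plvap passed with the 12 libraries alone (adjusted p = 0.000658), with voom (adjusted p = 0.00184) and with DESeq2 (adjusted p = 0.0418). It did not pass with GC-corrected offsets (adjusted p = 0.0814) or all 70 libraries (adjusted p = 0.0956). Xenobiotic enzymes held 0 calls of 15 in the edgeR model shared with knockout mice and 3 lower in DESeq2, with 6 at an unadjusted p under 0.05. With the 12 libraries alone 4 were lower in edgeR, with voom 5 and with all 70 libraries 0. Cyp2s1, an airway cytochrome, had an adjusted p of 0.0507 in the shared edgeR model, and 3 members passed without knockout silica mouse 3. Cyp2s1 passed with the 12 libraries alone (adjusted p = 0.0148), DESeq2 (adjusted p = 0.0242) and voom (adjusted p = 0.00316). With all 70 libraries it did not (adjusted p = 0.127).

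The 6 silica mice differed in their levels of the called genes, which were chosen with these same mice. Over the 245 higher genes the median of a mouse's log2 level over the air mean was 0.91 in mouse 3, 0.90 in mouse 1, 0.85 in mouse 4, 0.82 in mouse 6, 0.56 in mouse 2 and 0.51 in mouse 5. Mice 2 and 5 held the lowest of the 6 values in 191 of these genes, and mice 1 and 3 the highest in 144. Saa3 was lowest in mice 2 and 5, at 22.3 and 28.0 CPM, against 43.5 to 56.4 in the other silica mice. Slc26a4 was also lowest in mice 5 and 2, at 24.7 and 34.7 CPM, against 44.3 to 70.4 in the others. Nfkbie differed, with mouse 2 at 24.8 CPM, the highest of the group. Over the 53 lower genes, mouse 2 was the highest of 6 in 26 and had a median of -0.31, against -0.61 in mouse 6. The depth of mice 2 and 5, at 2041930 and 1802431 counts, was within the range of the group, and Lars2 took 8.67% and 5.95% of it. Why the mice differed was not tested.

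**Figure D4:**
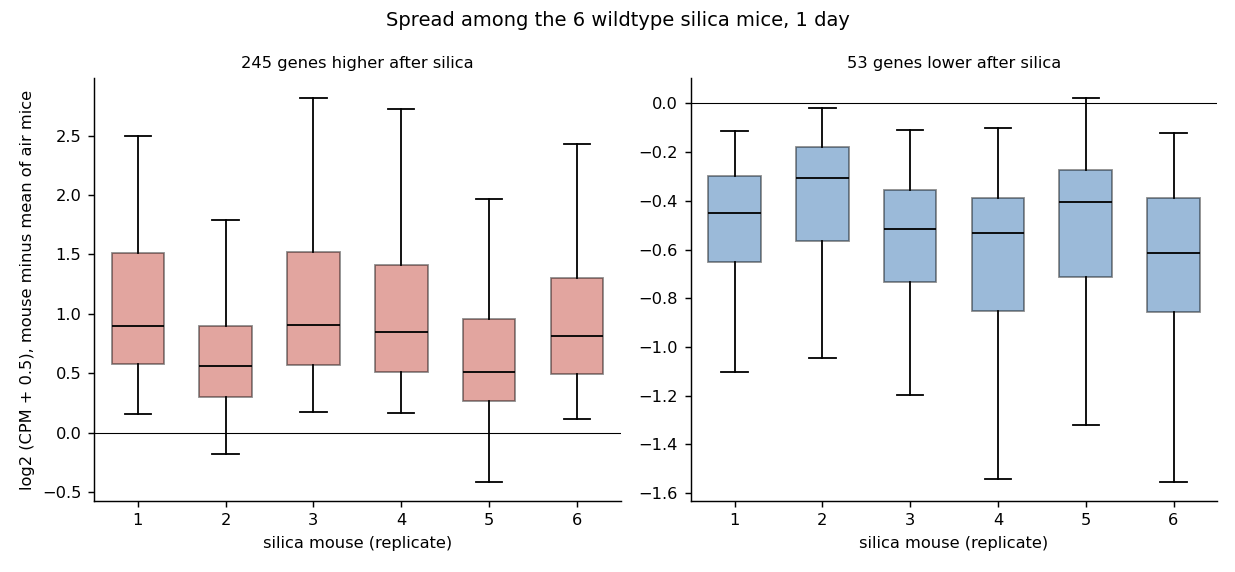
Boxes give the quartiles, over genes, of the log2 level (CPM + 0.5) of each silica mouse minus the mean of the air mice, with whiskers to 1.5 times the box. Mice 2 and 5 have the lowest medians over the 245 higher genes, at 0.56 and 0.51.

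The higher genes of wildtype lung were higher in knockout lung as well. Of the 245 genes 243 had a positive change in knockout mice of 1 day, where 49.7% of all genes did, and their median was 0.78 in wildtype and 0.71 in knockout mice. In the knockout comparison 1.93% of genes were called, and 154 of its 214 higher genes (72.0%) were among the 245 (62.9% of these). The difference between genotypes passed in 0 genes in edgeR, with 716 genes (5.70%) at an unadjusted p under 0.05, and with DESeq2 0 passed, against 1 with voom. Clec4e had a change of 2.51 ± 0.28 in wildtype and 0.90 (adjusted p = 0.109) in knockout mice, a difference that did not pass. Marco had 1.13 in wildtype and 1.86 in knockout mice. All these knockout values include knockout silica mouse 3, which stood apart from its group.

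The lower genes did not carry over in the same way. Of the 53 genes 33 had a negative change in knockout mice, where 50.3% of all genes did, with a median of -0.53 in wildtype and -0.10 in knockout mice, and 2 were called there. The 3 smallest p values of the difference belonged to Tcf7l1 (-1.05 ± 0.22, wildtype minus knockout), Hspb7 (-1.65 ± 0.36) and Ak1, an adenylate kinase (-0.88 ± 0.20), each at an adjusted p of 0.396. Tcf7l1 passed without knockout silica mouse 3 (adjusted p = 0.0310) and with voom quality weights (adjusted p = 0.0158). The 53 genes were chosen by their change in wildtype mice at 1 day, so these medians are a description. The knockout median and counts include knockout silica mouse 3.

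**Figure D5:**
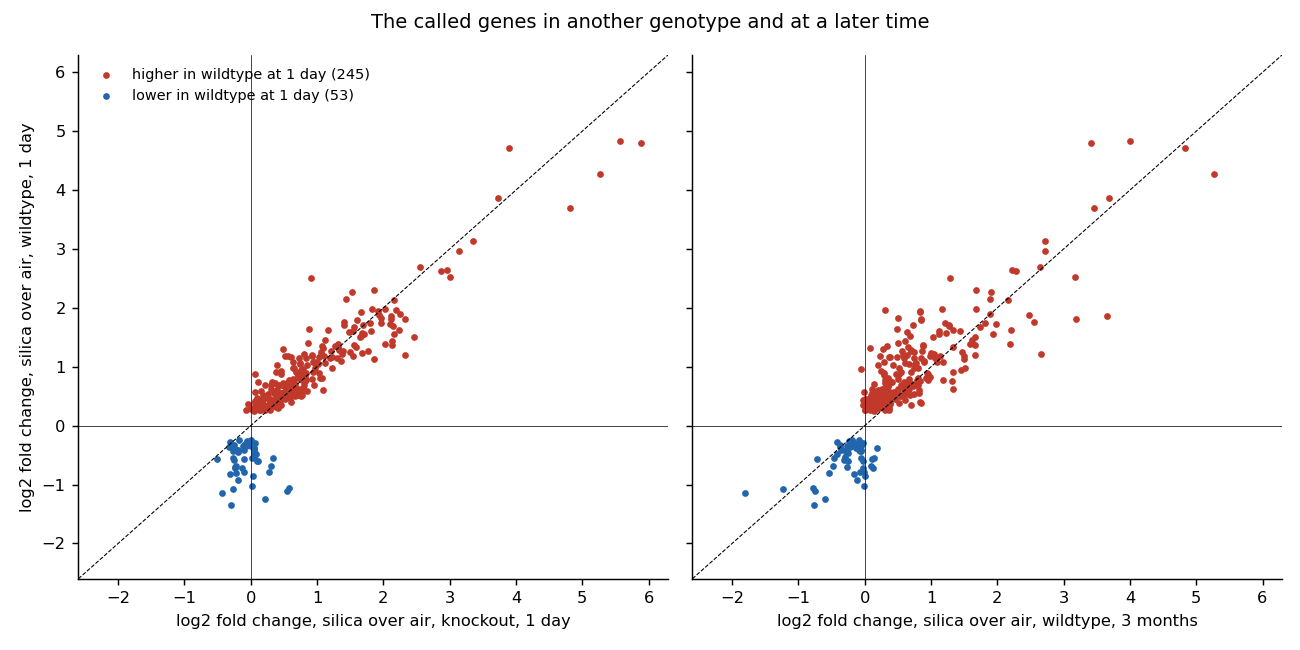
Each point is 1 of the 298 called genes, with its log2 fold change of silica over air in wildtype mice of 1 day on the vertical axis. The horizontal axis gives the same in knockout mice of 1 day (left) or wildtype mice of 3 months (right). Times are counted from the exposure. The dashed line marks equal change. Higher genes have a median of 0.78 in wildtype mice of 1 day, 0.71 in knockout mice and 0.59 at 3 months. The 53 lower genes scatter around 0 in knockout mice, with 33 below it.

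At 3 months after exposure 240 of the 245 higher genes still had a positive change in wildtype mice, where 47.5% of all genes did. In the fit of 70 libraries 80 of the 245 were called at 3 months, where 1.43% of all genes were called (1.21% higher). That fit called 169 of the 245 at 1 day. The median of the 245 was 0.78 at 1 day and 0.59 at 3 months. Of the 53 lower genes 48 were negative at 3 months, against 52.5% of all genes, and Cidec was called. The same fit called 22 of the 53 at 1 day. The median of the 53 was -0.53 at 1 day and -0.18 at 3 months. The difference between the times passed in 0 genes in edgeR, with 635 genes (4.79%) at an unadjusted p under 0.05. The smallest p belonged to the protease Pcsk6 (1.11 ± 0.25, 1 day minus 3 months, adjusted p = 0.343), followed by Phf13 (-0.85 ± 0.20) and D17H6S56E-5 (0.94 ± 0.22). Hp and Serpina3n had changes of 0.45 and 0.53 at 1 day and of 0.01 and 0.09 at 3 months. Ctsk and Mmp12 had changes of 1.22 and 1.86 at 1 day and of 2.66 and 3.66 at 3 months. With only the 24 wildtype libraries of both times 10 genes passed, of which Hp and 3 others changed more at 1 day and Ctsk, H2-Ab1 and 4 others more at 3 months.

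Some values rest on reads that annotation cannot assign with certainty. Of 293 called genes with an annotation 93 overlap another gene and 84 of them a gene on the other strand, and the strand setting of the counting is not given in the sources used here. Among the named genes this holds for Cp, Cxcl16, Ccl6, Csf2, Il1a, Tnfrsf9, Icam1, Irf7, Nfkb2, Nusap1, Kif20a, Mmp12, Plet1, Plek, Has3, Slc13a3, Slc7a11, Bhlhe40, Noxo1, Muc4, Arg2, Ctsz, Timp1, Hydin, Acaa1b, Mb, Cox6a2, Tcf7l1, Cyp2f2, Plvap and Cyp2s1.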

How the data were processed

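The authors deposited whole-number counts of reads per gene for 70 mouse lung libraries. The submitters' processing notes list HTSeq 0.11.2 and HISAT2 2.1.0, besides SAMtools 1.8, Trimmomatic 0.35, bcl2fastq 2.19 and Cufflinks, and the build mm10. The annotation and strand setting are not given in the sources used here. Of 24439 genes in the deposited counts, 16 identical entries were dropped. Groups came from the sample labels, and each library is 1 mouse.

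The 24 libraries of 1 day (wildtype and knockout, silica and air, 6 each) were fitted together with edgeR 4.0.16 in R 4.3.3, using filterByExpr, TMM normalisation, the quasi-likelihood test and Benjamini-Hochberg adjustment over 12558 genes, with a threshold of 0.05. The difference between genotypes was an interaction in the same fit, and that between 1 day and 3 months came from a fit of all 70 libraries. Normalised CPM used the TMM factors. SE is the absolute log2 fold change divided by the square root of F, an approximation. On simulated counts for 12452 genes the fit recovered 72% of 1.5-fold and 100% of 2-fold increases and 88% of decreases to a fold of 0.5, with 7 false calls among 187. The simulated counts held no trend with GC and no outlying library, so they do not give the share of false calls in the data.

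Alternatives were DESeq2 1.42.0, limma 3.58.1 voom with quality weights, DESeq2 size factors, other filters, the compared groups alone, all 70 libraries, and each library left out. GC-corrected offsets and thinning of the 12 compared libraries to 1539090 counts each were chosen after seeing the data. Promoters came from RefSeq tables of GRCm38.p6.

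The comparison and the 41 gene lists were chosen with earlier results of these data known. Genes were named by a rule: Slc26a4, the 30 largest increases and 15 largest decreases with a mean of at least 1 CPM, the 15 smallest p per direction, up to 5 called genes per list (or the 2 smallest p) and the 3 smallest p of each difference test; some genes the rule took are not reported here. Genes outside the rule, chosen after their values were seen, were Adipoq, Arg2, Camp, Chil3, Cxcl15, Cxcl2, Ehf, Elane, Fabp5, Hp, Il1b, Il6, Itih4, Lipa, Mpo, Muc4, Nfkb1, Nfkb2, Ngp, Nlrp3, Noxo1, Nqo1, Pglyrp1, Plin1, Rela, Relb, Serpina3n, Sftpc, Siglecf and Uhrf1. With 1539090 to 4851643 counts per library, values of a few CPM rest on few reads. SE and p-values rest on the spread between mice within groups over all libraries of the fit, knockout mice and counting noise included.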

Additional observations from a re-analysis of the deposited data

Results flagged for a closer look

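In 11 of 280 sets of 6 mice (140 genes, silica and air), the highest or lowest mouse stood apart from the other 5 by more than Dixon's limit for 6 samples, which chance passes in about 1 set in 20. Among silica mice, Ccl3 was highest in mouse 1 at 9.88 CPM, with the others between 4.94 and 6.28. Fndc1, 1 of the lower genes, was highest in silica mouse 2 at 18.8 CPM, with the others between 13.0 and 13.7.

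The remaining sets were of air mice. Air mouse 1 held the lowest D17H6S56E-5 at 34.5 CPM (others 44.9 to 50.3). It also held the highest Ier3 at 88.4 CPM (others 59.1 to 69.8), Nfkbiz at 58.0 CPM (others 46.1 to 49.9) and Plet1 at 49.0 CPM (others 33.9 to 39.4). Air mouse 6 held the highest Clec5a at 3.69 CPM (others 0.695 to 1.81), Ptgs2 at 36.5 CPM (others 23.6 to 27.7) and Serpina3n at 158.7 CPM (others 138.7 to 145.3). Air mouse 2 held the highest S100a9 at 16.3 CPM (others 9.02 to 10.2) and air mouse 3 the lowest Pigr at 17.6 CPM (others 21.9 to 24.5).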

How the results depend on the processing

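Leaving out each of the 24 libraries in turn gave 206 to 528 called genes, 184 to 348 of them higher and 22 to 180 lower, with the low end without silica mouse 4 and the high end without knockout silica mouse 3. The lower genes also moved past 1.5 times to 28 without air mouse 1, air mouse 2 or silica mouse 6, to 32 and 35 without air mouse 3 and 5, and to 114 without silica mouse 2. With the 12 compared libraries alone 641 genes were called (388 higher, 253 lower), and with voom 761 (460 higher, 301 lower). DESeq2 gave 86 lower genes, all 70 libraries 30 and thinned libraries 167. The difference between genotypes passed in 0 to 1 genes over the libraries left out (0 to 0 higher, 0 to 1 lower) and in 1 with voom, a lower one. The difference between times passed in 0 to 0 genes over the libraries left out and in 10 with the 24 wildtype libraries (4 higher, 6 lower). The cause was not tested. Of 140 genes, 138 stayed on their side of the threshold with DESeq2 size factors, 138 with DESeq2 and 100 with all 70 libraries, where 40 lost their call. No called gene among them reversed, and Cxcl15 (-0.043) and Sftpc (0.0085), which were not called, changed sign with GC-corrected offsets. No paired analysis was possible because each mouse number belongs to 1 mouse and the groups share none. Depth limits low genes such as Cxcl2, which was not tested.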
